A study of Mus musculus with 6 samples.

Results

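The genes of the Wnt pathway were followed in MC38 tumors grown in mice, from the ligands and their receptors to the antagonists, the proteins that control beta-catenin and the feedback targets. The 63 genes were taken by symbol from the protein-coding rows of the deposited table. They are the genes whose symbol is Wnt, Fzd, Sfrp, Dkk or Rspo followed by a number. A list of receptors, ligases, antagonists, targets and transcription factors of the pathway was added. The table holds 52636 genes, of which 22027 are protein-coding, and the rule for the 63 uses no measured value. MC38 cells descend from a colon adenocarcinoma of the mouse. Zfx encodes a transcription factor of the zinc finger class and lies on the X chromosome. In 3 libraries the genotype label reads MC-38 M1E5-Zfx-KO-Thy1.2, which names M1E5 cells in which Zfx was targeted with CRISPR ribonucleoprotein complexes, carrying the allelic form Thy1.2 of the surface protein Thy1. The other 3 libraries, labelled M1E5-Thy1.1, are the controls, so that genotype and Thy1 form differ together and cannot be told apart. In both groups the cells were injected under the skin of untreated female mice aged 6 to 10 weeks, and RNA was taken from tumor cells sorted after digestion of the tumor. The sources used here give neither the mouse strain nor the marker of the sort, nor whether the edited line is 1 clone. Whether each library stands for a different mouse is not stated in the labels, and the p-values therefore measure the spread between libraries, which may be technical.

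Wnt proteins are secreted, lipid-modified ligands that bind Frizzled receptors on the cell surface. Together with the co-receptors Lrp5 and Lrp6 they stop the destruction of beta-catenin by a complex built on Axin and Apc, and beta-catenin then acts with TCF and LEF factors on target genes, several of which feed back on the pathway. Other Wnt proteins, Wnt5a above all, act mainly through Ror and Ryk receptors without beta-catenin. In the colon the pathway maintains the stem cells of the crypts, R-spondins and Lgr receptors raise its strength by protecting Frizzled from the ligases Znrf3 and Rnf43, and mutation of Apc is a common start of colorectal cancer.

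Each library labelled Zfx-KO held between 37763096 and 65050908 reads, and each control between 42392848 and 42962578. Levels are given as CPM (a gene's reads scaled by the total of its own library), differences as log2 fold changes of the libraries labelled Zfx-KO over the controls, and a gene was called at a limma adjusted p under 0.05. Zfx itself did not follow its label. It stood at 78.7, 84.7 and 74.7 CPM in the libraries labelled Zfx-KO, against 51.2, 58.7 and 44.1 CPM in the controls, so directions below follow the labels and no loss of Zfx RNA was measured. The log2 fold change was 0.64 (SE 0.10, limma adjusted p = 0.000473), and reads from an edited transcript would count as well, since the labels name no cut site. Of 10 markers of gut epithelium, taken to check the colon label, 6 were tested. Cdx2 had 0 reads in all 6 libraries, and Epcam did not exceed 0.0523 CPM in any. Krt8, a keratin of simple epithelia, stood at 13.9, 19.3 and 20.1 CPM in the libraries labelled Zfx-KO, against 0.0472, 0 and 0.0702 CPM in the controls. Cdh1 was at 1.51, 1.60 and 1.51 CPM in the libraries labelled Zfx-KO and 1.70, 1.63 and 0.889 CPM in the controls, and Lgals4 at 1.56, 1.12 and 1.26 CPM in the libraries labelled Zfx-KO and 1.96, 1.65 and 1.76 CPM in the controls. The other 5 markers (Krt18, Krt19, Krt20, Vil1 and Cdh17) stayed under 1 CPM in every library.

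The Wnt genes moved in both directions. The most abundant ligands Wnt5a and Wnt7b, all 5 co-receptors, Lgr4, Znrf3, Axin1, Axin2 and Lef1 fell in the libraries labelled Zfx-KO, whereas the antagonists Sfrp2, Sfrp4, Sfrp1 and Dkk3, the ligand Wnt9a and the receptor Fzd4 were higher there. The antagonists Dkk2 and Apcdd1 fell. Of the 63 genes, 53 had values high enough to be tested, 22 of these were called higher (41.5%) and 20 lower (37.7%), and 11 were not called. Over all 20094 genes tested, 24.9% were called higher and 19.5% lower. Changes of at least 2-fold were called higher in 20 of the 53 and lower in 7, beside 11.6% and 3.65% of all genes tested. The median log2 fold change was 0.11 over the 53 and 0.09 over all genes tested. Of the 10 genes that were not tested, Sfrp5, Dkk1 and Dkk4 had 0 reads in all 6 libraries, and Wnt3, Wnt3a, Wnt7a, Wnt9b, Rspo2, Rspo4 and Wif1 had between 1 and 15 reads in libraries labelled Zfx-KO. A set of 7 others (Lgr5, Wnt11, Wnt16, Fzd6, Fzd3, Wnt8b and Wnt4) had 0 reads in every control and was tested only through the libraries labelled Zfx-KO, so these genes had to differ, and no weight rests on their number. Counted over the 46 tested Wnt genes with reads in both groups, 15 were called higher (32.6%) and 20 lower (43.5%), beside 23.6% and 19.8% of the 19746 such genes of the whole table. Changes of at least 2-fold were called higher in 13 of the 46 (28.3%) and lower in 7 (15.2%), beside 10.1% and 3.68% of those genes. Among the 15, Wnt2, Wnt8a, Fzd10, Sfrp1, Sfrp2, Sfrp4, Rspo1 and Nkd1 had 0 reads in at least 1 control. They passed the filter only with the libraries labelled Zfx-KO, so no weight rests on the numbers called higher here either.

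In 21 of the 22 genes called higher and 19 of the 20 called lower the groups did not overlap, the exceptions being Lgr6 and Lrp6. Over all genes the groups did not overlap in 4905 of the 5003 called higher and 3881 of the 3924 called lower, so nothing is read from that count. The libraries labelled Zfx-KO had a median over tested genes 0.21 log2 units above that of the controls. With the medians set equal, 19 Wnt genes were called higher and 21 lower, and over the whole table the calls turned to 3224 higher and 6357 lower, against 5003 higher and 3924 lower as deposited. No called Wnt gene changed sign under that scaling.

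**Figure D1:**
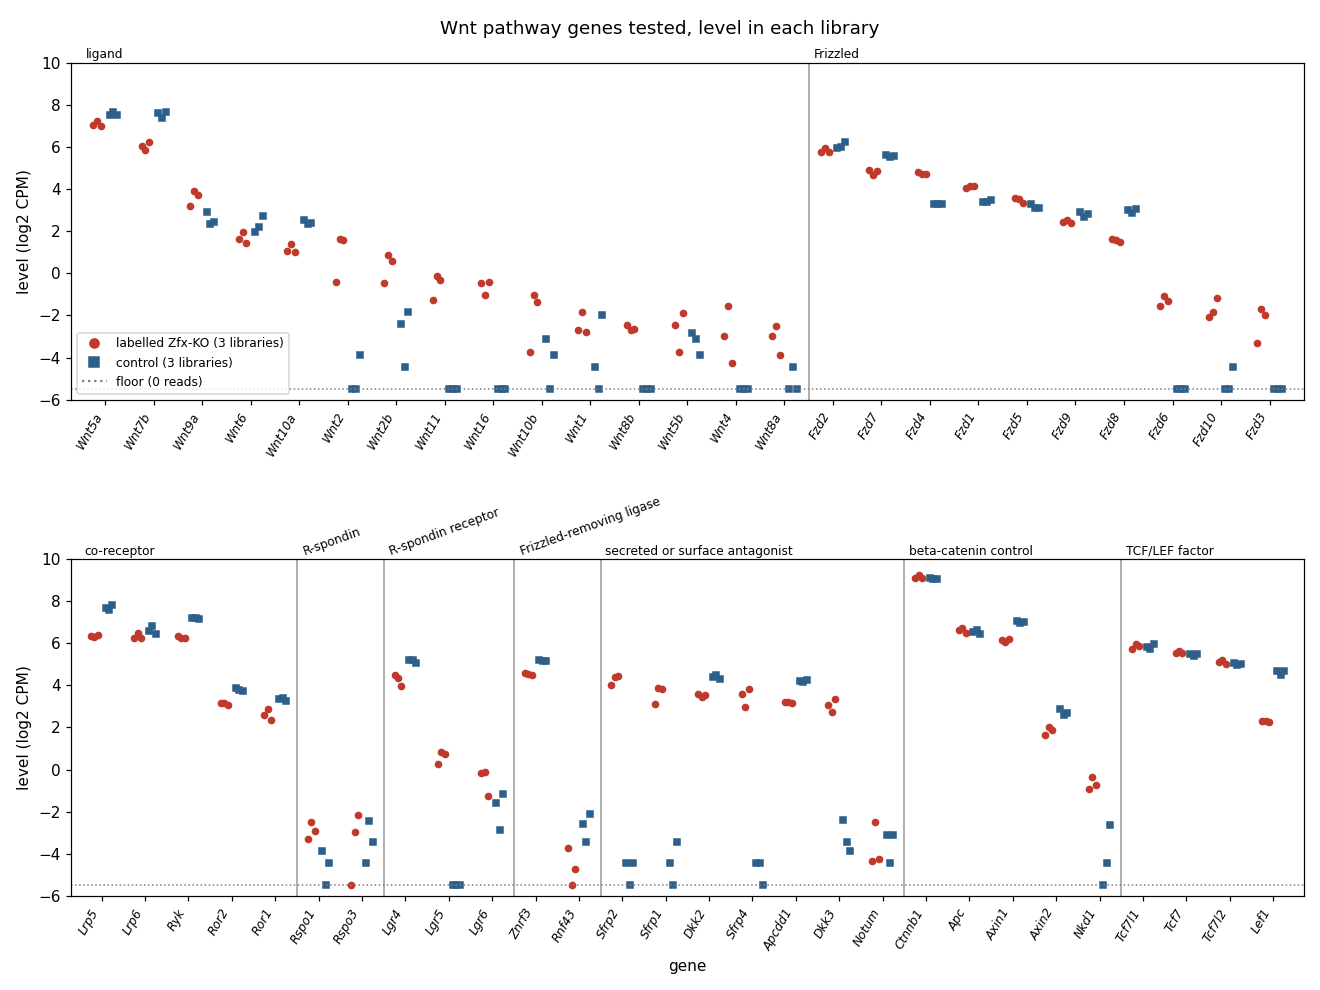
Level of each tested Wnt gene in each library (y axis, log2 CPM; dotted line, 0 reads), with genes on the x axis grouped by role and ordered by abundance, circles for the 3 libraries labelled Zfx-KO and squares for the 3 controls. The co-receptors and most abundant ligands lie lower in the libraries labelled Zfx-KO, while Sfrp2, Sfrp1, Sfrp4 and Dkk3 lie far above controls that stand near or at the floor.

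Start-site sequences were available for 41 of the 63 genes, as RefSeq promoters of the build GRCm38.p6, and are shown for 4 genes. These are Sfrp2 (the largest fitted rise), Lef1 (the largest fitted fall), Axin2 (the classical feedback target) and Wnt11 (chosen for its match to the TCF/LEF motif). Each is the 250 bases before the start, on the plus strand, at chr3:83766071-83766320 for Sfrp2, chr3:131110047-131110296 for the most upstream start of Lef1, chr11:108920099-108920348 for Axin2 and chr7:98834862-98835111 for the upstream start of Wnt11. Capitals mark the motif match, which lies on the minus strand.
Sfrp2: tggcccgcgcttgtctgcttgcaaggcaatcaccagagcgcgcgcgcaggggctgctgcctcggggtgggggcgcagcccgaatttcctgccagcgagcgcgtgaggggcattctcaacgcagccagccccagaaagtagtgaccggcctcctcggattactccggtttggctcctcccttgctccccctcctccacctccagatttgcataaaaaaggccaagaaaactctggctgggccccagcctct
Lef1: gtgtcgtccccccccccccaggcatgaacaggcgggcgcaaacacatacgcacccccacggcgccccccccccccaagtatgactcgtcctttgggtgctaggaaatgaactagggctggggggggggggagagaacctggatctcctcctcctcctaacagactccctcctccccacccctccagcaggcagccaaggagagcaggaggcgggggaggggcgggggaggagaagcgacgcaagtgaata
Axin2: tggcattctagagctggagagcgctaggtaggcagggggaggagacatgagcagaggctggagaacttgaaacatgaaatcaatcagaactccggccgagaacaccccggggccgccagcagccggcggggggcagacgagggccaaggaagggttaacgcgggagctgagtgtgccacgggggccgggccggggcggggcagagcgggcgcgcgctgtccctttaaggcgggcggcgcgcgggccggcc
Wnt11: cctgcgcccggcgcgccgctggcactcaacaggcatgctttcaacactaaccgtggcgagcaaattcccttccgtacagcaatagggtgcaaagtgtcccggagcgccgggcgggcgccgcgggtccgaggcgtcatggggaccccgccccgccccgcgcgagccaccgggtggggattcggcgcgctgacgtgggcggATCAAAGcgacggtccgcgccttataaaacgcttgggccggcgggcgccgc
Searched on both strands, the TCF/LEF letters CTTTGAT stood in 3.21% of all 32851 RefSeq promoters of that length and in 2 of the 51 promoters of the Wnt genes, those of Wnt11 and Wnt5b. The second form CTTTGAA, which shares its first letters with the other and so cannot match at the same place, stood in 4.46% of all promoters and in 1 of the 51, that of Dkk1. The letters AGGCCT, the core of the motif described for ZFX, stood in 8.7% of all promoters and in 3 of the 51, those of Wif1, Wnt3 and Wnt5b. Of the Wnt genes called, Wnt11, which had 0 control reads and had to differ, alone had a match in the windows available. A match describes the letters, and the lack of one says only that they are not in this window.

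Wnt ligand RNA was lower in sum and changed in composition. Summed over the 19 ligand genes, the level was 217, 235 and 226 CPM in the libraries labelled Zfx-KO, against 391, 381 and 399 CPM in the controls, without overlap. A pair of genes made up most of it. As shares of summed CPM, which are not corrected for length, Wnt5a accounted for 59.9% of the sum in the libraries labelled Zfx-KO and 48.3% in the controls, and Wnt7b for 29.6% and 47.4%, while Wnt9a took 5.49% and 1.53%. Of the 15 ligands tested, 8 were called higher (53.3%) and 4 lower (26.7%), beside 24.9% and 19.5% of all genes tested. Among the 8, Wnt11, Wnt16, Wnt8b and Wnt4 had 0 reads in every control and had to differ. Wnt2 and Wnt8a also passed the filter only with the libraries labelled Zfx-KO, so no weight rests on the number called higher. In bulk samples fewer cells of a type and less RNA per cell cannot be told apart, here and in what follows.

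Wnt7b, a ligand that signals through beta-catenin, fell most among the abundant ligands. It stood at 66.2, 57.9 and 75.9 CPM in the libraries labelled Zfx-KO and at 193, 164 and 199 CPM in the controls, a log2 fold change of -1.48 (SE 0.10, limma adjusted p = 2.39e-06). Its gene lies at chr15:85535439-85581821 on the minus strand. Wnt5a, the main ligand of the beta-catenin-independent arm, stood at 133, 148 and 125 CPM in the libraries labelled Zfx-KO and at 181, 203 and 182 CPM in the controls, a log2 fold change of -0.48 (SE 0.07, limma adjusted p = 0.00046). Every library labelled Zfx-KO was below every control for both genes. Per kilobase of exon the order of the pair differed between groups, with Wnt5a at 19.2 and Wnt7b at 15.1 CPM per kb in the libraries labelled Zfx-KO, and Wnt5a at 26.8 and Wnt7b at 42.0 CPM per kb in the controls.

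Wnt10a and Wnt6, neighbours on chromosome 1 with 6193 bases between them, are ligands known from the ectoderm. Wnt10a was at 2.07, 2.56 and 1.98 CPM in the libraries labelled Zfx-KO, against 5.83, 5.10 and 5.22 CPM in the controls (log2 fold change -1.29, SE 0.16, limma adjusted p = 9.26e-05). Wnt6 was at 3.10, 3.90 and 2.66 CPM in the libraries labelled Zfx-KO, against 3.92, 4.59 and 6.53 CPM in the controls (log2 fold change -0.62, limma adjusted p = 0.0369). The call of Wnt6 was lost without a variance trend (limma adjusted p = 0.103) and without replicate 1 or 3 labelled Zfx-KO or control replicate 3 (0.0808, 0.125 and 0.137). Wnt9a, on chromosome 11, was the only ligand above 5 CPM to rise, at 9.24, 15.2 and 13.0 CPM in the libraries labelled Zfx-KO and 7.45, 5.03 and 5.41 CPM in the controls (log2 fold change 1.05, SE 0.20, limma adjusted p = 0.00155). Its neighbour Wnt3a, 16175 bases away, had 1 read in all 6 libraries together.

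The other ligands that rose were scarce. Wnt2, a ligand of the mesenchyme of the embryonic lung, had 28, 119 and 192 reads in libraries labelled Zfx-KO and 0, 0 and 2 reads in the controls, a ratio of pooled read shares of 154 (95% exact interval 42.3 to 1276; limma adjusted p = 4.86e-05). The lowest of the libraries labelled Zfx-KO was replicate 1, and without it the log2 fold change was 6.55 in place of 5.89. Wnt2b, its close relative, had 27, 68 and 96 reads in libraries labelled Zfx-KO and 7, 1 and 11 in the controls (log2 fold change 3.23, limma adjusted p = 0.00218), which was 2.46 without control replicate 2. Wnt11, a ligand of cell movements in the embryo, had 15, 34 and 50 reads in libraries labelled Zfx-KO and none in the controls, and taking 3 reads as the limit over the control group it was at least 30.0-fold higher. Wnt16, known from bone and joints, had 27, 18 and 48 reads in libraries labelled Zfx-KO and none in the controls, at least 28.2-fold higher. Wnt8b and Wnt4, with 20 and 18 reads in libraries labelled Zfx-KO and 0 in the controls, were at least 6.05-fold and 5.45-fold higher. Wnt8a, with 13 reads in libraries labelled Zfx-KO and 1 in the controls, had a ratio of 11.8 (95% exact interval 1.77 to 502). Wnt10b, Wnt1 and Wnt5b were not called, with log2 fold changes of 2.11, 1.53 and 0.57. The call of Wnt8a was lost without replicate 1 or 2 labelled Zfx-KO and without control replicate 1 or 3 (limma adjusted p between 0.0571 and 0.105), those of Wnt8a and Wnt4 with quantile normalization (0.154 and 0.124), while Wnt10b passed without replicate 1 labelled Zfx-KO (0.0101) or control replicate 1 (0.0346), and Wnt1 without control replicate 3 (0.0109). These bounds and intervals cover counting error only.

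**Figure D2:**
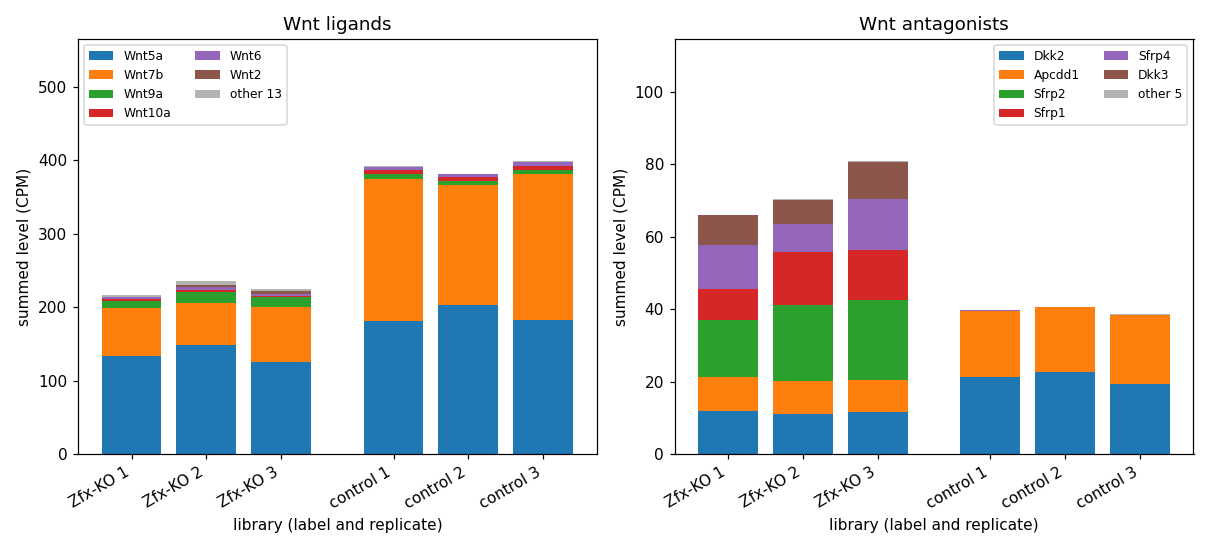
Summed level (y axis, CPM, bars from 0) of the Wnt ligand genes (left) and of the secreted or surface antagonist genes (right) in each library (x axis), split by gene in color. The ligand sum is lower in the 3 libraries labelled Zfx-KO, mostly through Wnt7b, and the antagonist sum is higher there, through Sfrp2, Sfrp1, Sfrp4 and Dkk3.

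Single Frizzled receptors rose or fell while their summed levels overlapped between the groups. The 10 genes summed to 149, 153 and 145 CPM in the libraries labelled Zfx-KO and to 155, 152 and 166 CPM in the controls. All 10 were tested, of which 6 were called higher (60%) and 3 lower (30%), beside 24.9% and 19.5% of all genes tested. Among the 6, Fzd6 and Fzd3 had 0 reads in every control and had to differ. Fzd10 also passed the filter only with the libraries labelled Zfx-KO, so no weight rests on the number called higher. Fzd2 was the most abundant in both groups, at 54.2, 62.8 and 53.7 CPM in the libraries labelled Zfx-KO and 61.0, 63.6 and 74.3 CPM in the controls, and was not called (log2 fold change -0.22, 95% interval -0.42 to -0.02, limma adjusted p = 0.073). It was called lower with equal medians (-0.43, limma adjusted p = 0.00217), without replicate 2 labelled Zfx-KO (0.032) and without control replicate 1 (0.0495).

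Fzd4, a receptor for Norrin and Wnt proteins that is needed for retinal vessels, rose with the tightest replicates of the family. It stood at 27.6, 26.4 and 26.0 CPM in the libraries labelled Zfx-KO, against 9.70, 9.61 and 9.69 CPM in the controls (log2 fold change 1.46, SE 0.08, limma adjusted p = 3.2e-07). Its gene lies at chr7:89404355-89413134. Fzd7, a receptor of stem cells in gut and embryo, was at 30.1, 25 and 28.7 CPM in the libraries labelled Zfx-KO and 48.4, 46.5 and 47.0 CPM in the controls (log2 fold change -0.76, limma adjusted p = 2.92e-05). Fzd8 was at 3.10, 2.96 and 2.81 CPM in the libraries labelled Zfx-KO and 7.97, 7.22 and 8.17 CPM in the controls (log2 fold change -1.39, SE 0.12, limma adjusted p = 1.12e-05). The groups of these 3 genes did not overlap. Per kilobase of exon, Fzd4 reached 3.97 CPM per kb in the libraries labelled Zfx-KO and 1.44 in the controls, whereas Fzd7 was at 6.16 and 10.4.

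Fzd1 was higher by 0.67 on the log2 scale and Fzd5, the receptor of Paneth cell maturation, by 0.32, while Fzd9 was lower, with a log2 fold change of -0.34 (limma adjusted p = 0.000115, 0.0313 and 0.0348). The call of Fzd5 was lost with equal medians (limma adjusted p = 0.43), under 3 other settings and when replicate 1 or 2 labelled Zfx-KO or control replicate 2 or 3 was left out, and that of Fzd9 when replicate 1 or 3 of either group was left out (0.0804 to 0.125). Fzd6 and Fzd3 were tested only through the libraries labelled Zfx-KO and had to differ. Fzd6 had 12, 17 and 25 reads in libraries labelled Zfx-KO and none in the controls, at least 16.3-fold higher, and Fzd3 had 3, 11 and 15 reads in libraries labelled Zfx-KO and none in the controls, at least 8.78-fold higher. Both genes are receptors of planar cell polarity. Fzd10 had 8, 10 and 27 reads in libraries labelled Zfx-KO and 0, 0 and 1 in the controls, a ratio of 40.9 (95% exact interval 6.97 to 1649).

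**Figure D3:**
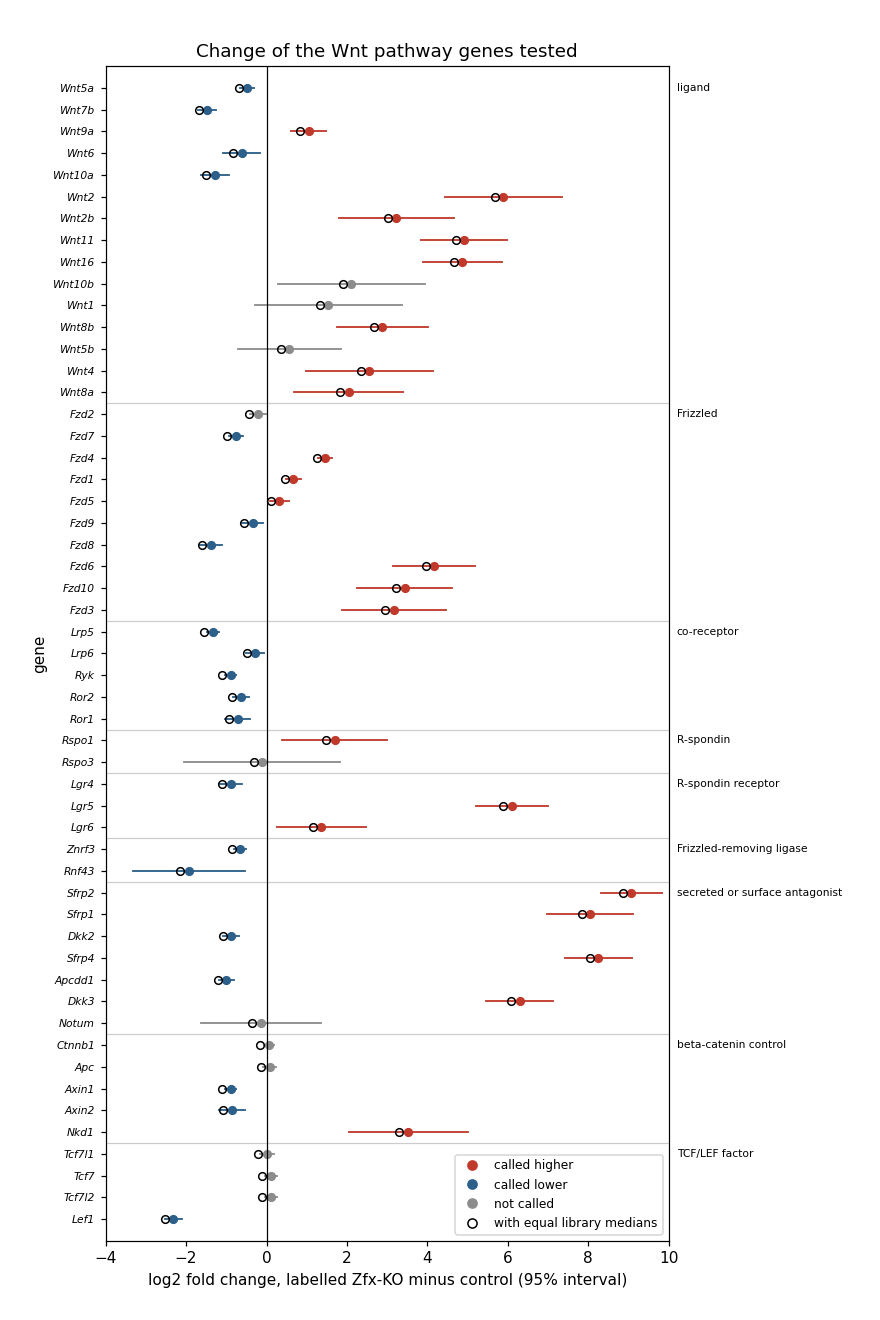
Log2 fold change of each tested Wnt gene (x axis, libraries labelled Zfx-KO minus controls; filled circles with 95% intervals from limma, open circles with equal library medians), with genes down the page by role. Every co-receptor and ligase lies left of 0; values of genes without control reads are fitted values that depend on the prior and are no bounds.

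Every co-receptor fell. The 5 genes summed to 254, 259 and 245 CPM in the libraries labelled Zfx-KO, against 470, 467 and 472 CPM in the controls. Lrp5, which joins Frizzled in receiving beta-catenin-dependent Wnt proteins, was at 81.3, 77.6 and 82.9 CPM in the libraries labelled Zfx-KO and at 206, 189 and 221 CPM in the controls (log2 fold change -1.34, SE 0.07, limma adjusted p = 2.68e-07). Its gene lies at chr19:3584828-3686564 on the minus strand. Ryk, an atypical kinase that binds Wnt5a, was at 82.0, 75.8 and 74.3 CPM in the libraries labelled Zfx-KO and at 145, 144 and 143 CPM in the controls (log2 fold change -0.89, SE 0.06, limma adjusted p = 1.33e-06). The Wnt5a receptors Ror2 and Ror1 were lower too, with log2 fold changes of -0.63 and -0.72 (limma adjusted p = 0.00029 and 0.00193). In these 4 genes the groups did not overlap.

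Lrp6, the paralog of Lrp5, had a smaller log2 fold change, and its difference from Lrp5 was not tested. It was at 76, 89.3 and 74.8 CPM in the libraries labelled Zfx-KO and at 94.9, 111 and 86.1 CPM in the controls, with overlap (log2 fold change -0.28, limma adjusted p = 0.0435), and the call was lost under 3 settings and when replicate 1 or 3 labelled Zfx-KO or control replicate 1 or 2 was left out (0.0523 to 0.153). Per kilobase of exon, Lrp5 stood at 13.4 and Lrp6 at 8.54 CPM per kb in the libraries labelled Zfx-KO, and at 34.1 and 10.4 CPM per kb in the controls.

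The R-spondin arm was carried almost wholly by its receptors. The 4 R-spondin genes together did not exceed 0.338 CPM in any library. Rspo1 had 3, 6 and 7 reads in libraries labelled Zfx-KO and 2, 0 and 1 in the controls, a ratio of 4.84 (95% exact interval 1.39 to 25.9; limma adjusted p = 0.0389), a call that was lost with equal medians, under 3 other settings and when any library but control replicate 1 was left out (limma adjusted p between 0.0589 and 0.23). Rspo3 was not called. Lgr4, the broadly expressed R-spondin receptor, was at 22.6, 20.1 and 15.6 CPM in the libraries labelled Zfx-KO and at 37.1, 37.2 and 33.0 CPM in the controls (log2 fold change -0.89, SE 0.12, limma adjusted p = 0.00023). Lgr5, the receptor that marks crypt stem cells and is itself a Wnt target, went the other way. It had 44, 68 and 107 reads in libraries labelled Zfx-KO and 0 reads in each control, which made it at least 66.3-fold higher on the same limit. Per kilobase of exon it was at 0.324 CPM per kb in the libraries labelled Zfx-KO, beside 3.84 for Lgr4. Lgr6 was at 0.874, 0.889 and 0.400 CPM in the libraries labelled Zfx-KO and at 0.307, 0.116 and 0.421 CPM in the controls, with overlap (log2 fold change 1.36, limma adjusted p = 0.0464), and lost its call under 7 settings and when replicate 1 or 2 of either group was left out (limma adjusted p between 0.0549 and 0.289).

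Both ligases that remove Frizzled from the surface, which are themselves Wnt targets, were lower. Znrf3 was at 24.2, 23.0 and 22.4 CPM in the libraries labelled Zfx-KO and at 37.4, 35.7 and 36.0 CPM in the controls (log2 fold change -0.65, SE 0.07, limma adjusted p = 2.88e-05). Rnf43 was scarce, with 2, 0 and 1 reads in libraries labelled Zfx-KO and 6, 3 and 9 in the controls, a ratio of 0.151 (95% exact interval 0.0286 to 0.518; limma adjusted p = 0.0285), and was no longer called when replicate 2 or 3 labelled Zfx-KO or control replicate 1 or 3 was left out (0.0741 to 0.106).

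Sfrp2, Sfrp4, Sfrp1 and Dkk3, all secreted antagonists, rose, whereas Dkk2 and Apcdd1 fell. In sum the 11 antagonist genes reached 66.0, 70.3 and 80.9 CPM in the libraries labelled Zfx-KO, against 39.9, 40.7 and 38.6 CPM in the controls. In the controls nearly the whole sum came from Dkk2 (53.0%) and Apcdd1 (46.4%). In the libraries labelled Zfx-KO it was spread over Sfrp2 (27.0%), Sfrp1 (16.9%), Dkk2 (15.9%), Sfrp4 (15.5%), Apcdd1 (12.8%) and Dkk3 (11.6%). Per kilobase of exon, Sfrp2 was the highest antagonist in the libraries labelled Zfx-KO, at 9.78 CPM per kb, and Apcdd1 and Dkk2 were the highest in the controls, at 6.58 and 5.69. Of the 7 antagonists tested, 4 were called higher (57.1%) and 2 lower (28.6%), beside 24.9% and 19.5% of all genes tested. Among the 4, Sfrp2, Sfrp4 and Sfrp1 passed the filter only with the libraries labelled Zfx-KO, so no weight rests on the number called higher.

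The Sfrp genes encode secreted relatives of the Frizzled receptors that bind Wnt proteins outside the cell. Frzb, a family member whose symbol falls outside the rule, was not called (log2 fold change 0.07, limma adjusted p = 0.898). It was chosen after its values were seen. Sfrp2 was at 15.9, 20.9 and 22 CPM in the libraries labelled Zfx-KO and had 1, 0 and 1 reads in the controls, a ratio of 1284 (95% exact interval 355 to 10608; limma adjusted p = 5.44e-08). Sfrp4 was at 12.1, 7.77 and 13.9 CPM in the libraries labelled Zfx-KO and had 1, 1 and 0 reads in the controls, a ratio of 754 (95% exact interval 208 to 6229; limma adjusted p = 1.78e-07). Sfrp1 was at 8.55, 14.5 and 13.9 CPM in the libraries labelled Zfx-KO and had 1, 0 and 3 reads in the controls (log2 fold change 8.04, SE 0.48, limma adjusted p = 7.85e-07). All 3 were thus near the detection limit in the controls. They did not share their lowest library, which was replicate 1 labelled Zfx-KO for Sfrp2 and Sfrp1 and replicate 2 for Sfrp4. Dkk3, a divergent member of the Dickkopf family, was at 8.21, 6.72 and 10.3 CPM in the libraries labelled Zfx-KO, against 0.165, 0.0698 and 0.0468 CPM in the controls (log2 fold change 6.29, SE 0.37, limma adjusted p = 7.67e-07).

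Dkk2 and Apcdd1 went the other way. Dkk2, a Dickkopf protein that binds Lrp5 and Lrp6, was at 11.9, 11 and 11.5 CPM in the libraries labelled Zfx-KO and at 21.2, 22.6 and 19.5 CPM in the controls (log2 fold change -0.88, SE 0.09, limma adjusted p = 2.22e-05). Apcdd1, a membrane glycoprotein that inhibits Wnt signaling and is induced by it, was at 9.32, 9.29 and 9.05 CPM in the libraries labelled Zfx-KO and at 18.4, 18.0 and 18.9 CPM in the controls (95% interval of the log2 fold change -1.18 to -0.82, limma adjusted p = 5.8e-06). Neither gene showed overlap between the groups. Notum, an enzyme that strips the lipid from Wnt proteins, had 1, 6 and 2 reads in libraries labelled Zfx-KO and 4, 1 and 4 in the controls and was not called (limma adjusted p = 0.89). Wif1, which binds Wnt proteins, was not tested, with 15 reads in replicate 3 labelled Zfx-KO and 0 in the other 5 libraries.

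Markers of endothelial cells and pericytes, and most of those of fibroblasts, were also called higher, while most leukocyte markers were not called. Over all genes tested, 24.9% were called higher and 19.5% lower, which applies to each marker list here. All 12 endothelial markers were called higher, with a summed level of 129, 155 and 154 CPM in the libraries labelled Zfx-KO and 26.8, 23.6 and 31.7 CPM in the controls. Erg had 0 reads in the controls, and any marker without control reads had to differ. Tie1 and Cldn5 also passed the filter only with the libraries labelled Zfx-KO. Most of that sum was Pecam1, at 87.5, 112 and 116 CPM in the libraries labelled Zfx-KO and 16.5, 18.3 and 23.5 CPM in the controls. All 8 pericyte markers were called higher as well, at 677, 664 and 531 CPM in sum in the libraries labelled Zfx-KO and 337, 310 and 359 CPM in the controls, and Abcc9 and Higd1b had 0 reads in the controls. Of 10 fibroblast markers, 7 were called higher and 1 lower, at 7041, 8058 and 8681 CPM in sum in the libraries labelled Zfx-KO and 2670, 3064 and 3056 CPM in the controls. Within that list the collagen gene Col1a1 was at 2337, 2864 and 3237 CPM in the libraries labelled Zfx-KO and 55.3, 44.1 and 68.3 CPM in the controls, while the defining receptor Pdgfra was called lower, at 281, 318 and 318 CPM in the libraries labelled Zfx-KO and 383, 419 and 430 CPM in the controls. Of 10 leukocyte markers 1 was called higher, with sums of 189, 71.3 and 88.4 CPM in the libraries labelled Zfx-KO and 162, 34.8 and 75.8 CPM in the controls. Gut epithelial markers summed to 17.3, 23.3 and 23.5 CPM in the libraries labelled Zfx-KO and 3.82, 3.42 and 2.79 CPM in the controls, with 2 of 6 tested called higher, Krt8 and Krt19, and Cdx2 at 0 in every library. The part of other cell types in the Wnt genes that rose was not tested.

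**Figure D4:**
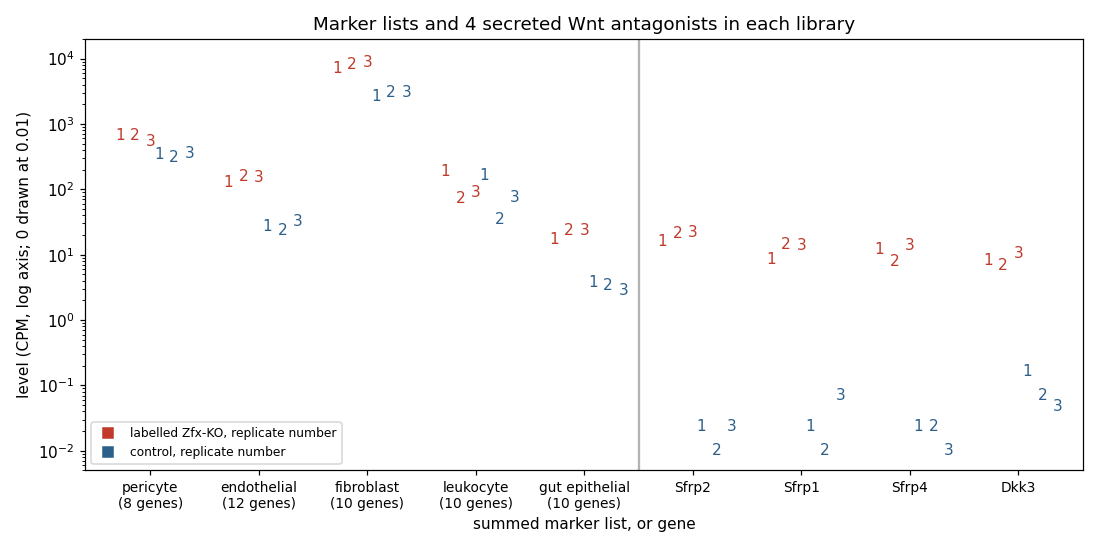
Summed level of each marker list and level of 4 secreted antagonists (y axis, CPM, log axis, 0 drawn at 0.01) in each library, with the digits giving the replicate and red for the libraries labelled Zfx-KO and blue for the controls. Among the libraries labelled Zfx-KO, the pericyte sum is lowest in replicate 3 (677, 664 and 531 CPM in replicates 1, 2 and 3). The fibroblast sum is highest in replicate 3 (7041, 8058 and 8681 CPM). Sfrp2, Sfrp4 and Dkk3 are highest in replicate 3 and Sfrp1 in replicate 2.

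The RNA of beta-catenin itself was not called, and its Axin scaffolds were lower. Ctnnb1, the gene of beta-catenin, was at 554, 591 and 541 CPM in the libraries labelled Zfx-KO and at 550, 533 and 530 CPM in the controls, and was not called (log2 fold change 0.06, 95% interval -0.07 to 0.19, limma adjusted p = 0.415). Apc, the scaffold that is mutated in many colon cancers, was at 97.9, 106 and 90.4 CPM in the libraries labelled Zfx-KO and at 91.6, 99.3 and 87.1 CPM in the controls, and was not called (0.08, 95% interval -0.09 to 0.24, limma adjusted p = 0.425). With equal medians these differences were -0.15 for Ctnnb1 and -0.13 for Apc, again not called, so their sign depends on the scaling. Axin1, the limiting scaffold of the destruction complex, was at 70.5, 65.9 and 72.5 CPM in the libraries labelled Zfx-KO and at 134, 126 and 128 CPM in the controls (log2 fold change -0.89, SE 0.06, limma adjusted p = 1.62e-06).

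The feedback targets were not all called, and those called higher were scarce in the controls. Axin2, the target most often used as a readout of beta-catenin activity, was at 3.10, 3.98 and 3.67 CPM in the libraries labelled Zfx-KO and at 7.27, 5.91 and 6.32 CPM in the controls (log2 fold change -0.86, SE 0.14, limma adjusted p = 0.000825). Nkd1, an inhibitor that binds Dishevelled, had 19, 29 and 38 reads in libraries labelled Zfx-KO and 0, 1 and 6 in the controls, a ratio of 11.2 (95% exact interval 5.19 to 28.6; limma adjusted p = 0.00164). Its log2 fold change of 3.52 was 2.87 without control replicate 1 and 4.30 without control replicate 3. Of the 9 feedback targets named here, Axin2, Lef1, Znrf3, Rnf43 and Apcdd1 were called lower, Lgr5 and Nkd1 higher, and Tcf7 and Notum were not called. Over all genes tested, 19.5% were called lower and 24.9% higher. Lgr5 had 0 reads in every control and had to differ, and Nkd1 and Rnf43 were scarce, so no weight rests on their calls.

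Of the 4 TCF and LEF factors, Lef1 was the only one called. Lef1 was at 4.85, 4.97 and 4.78 CPM in the libraries labelled Zfx-KO and at 25.7, 22.4 and 25.2 CPM in the controls (log2 fold change -2.32, SE 0.09, limma adjusted p = 8.1e-08). The lowest control stood more than 4 times above the highest library labelled Zfx-KO. The antisense gene Gm43352 shares 1208 bases of exon with Lef1 and had 11, 9 and 20 reads in libraries labelled Zfx-KO and 36, 36 and 26 in the controls. Lef1 itself had 183, 190 and 311 reads in libraries labelled Zfx-KO and 1090, 961 and 1078 in the controls. Strand was not stated, so reads of the pair may be mixed. Tcf7, at 46.8, 48.7 and 46.2 CPM in the libraries labelled Zfx-KO and 44.7, 42.1 and 44.4 CPM in the controls, was not called (log2 fold change 0.11, limma adjusted p = 0.171). Tcf7l1 and Tcf7l2 were not called either, with log2 fold changes of 0.01 and 0.11, and all 3 turned to the other side of 0 with equal medians (-0.10 for Tcf7, -0.21 for Tcf7l1 and -0.10 for Tcf7l2). Per kilobase of exon, Lef1 was at 1.39 CPM per kb in the libraries labelled Zfx-KO and 6.97 in the controls, below Tcf7l1 at 18.5 and 18.3 and Tcf7 at 18.0 and 16.7.

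Genes of the pathway outside the 63 were taken from 4 lists, with 115 genes in all, of which 105 were tested. Of these, 32 were called higher (30.5%) and 35 lower (33.3%), beside 24.9% and 19.5% of all genes tested. The same shares of all genes apply to each list below. Among the 32, Pygo1, Dact2, Nkd2, Tnfrsf19, Prox1, T and Fgf9 had 0 reads in every control and had to differ. Smoc2, Prickle2, Prickle3 and Daam2 also passed the filter only with the libraries labelled Zfx-KO. No weight therefore rests on the numbers called higher in these lists. Of 14 tested genes for secretion and handling at the surface, 4 were higher and 4 lower, with a median log2 fold change of 0.03. Ptk7, a Wnt co-receptor of planar polarity, was at 27.9, 29.3 and 26.7 CPM in the libraries labelled Zfx-KO and 76.1, 72.7 and 83.1 CPM in the controls (log2 fold change -1.46, limma adjusted p = 2.32e-07), and Adgra2, which presents Wnt7 ligands to Frizzled in brain vessels, was at 70.0, 71.9 and 76.6 CPM in the libraries labelled Zfx-KO and 139, 128 and 153 CPM in the controls (log2 fold change -0.94, limma adjusted p = 4.37e-06). Cthrc1, a secreted protein that stabilises Wnt and Frizzled complexes, was at 6.46, 16.5 and 14.2 CPM in the libraries labelled Zfx-KO and had 2, 1 and 1 reads in the controls (log2 fold change 7.77, limma adjusted p = 2.49e-07). Kremen1, which acts with Dickkopf proteins on Lrp6, was higher by 0.79. Wls and Porcn, which every Wnt protein needs for export and lipid attachment, were not called, with log2 fold changes of -0.02 and -0.14; they were chosen after their values were seen.

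Of 33 tested genes of the cytoplasmic and nuclear relay, 8 were called higher and 15 lower, with a median of -0.14. The inhibitor Nkd2 had 71, 89 and 92 reads in libraries labelled Zfx-KO and none in the controls, at least 76.3-fold higher. Dact1, another protein that binds Dishevelled, was at 2.38, 3.11 and 3.46 CPM in the libraries labelled Zfx-KO and had 1, 5 and 1 reads in the controls (log2 fold change 5.49, limma adjusted p = 7.5e-06). Ctnnbip1, which keeps beta-catenin from TCF, was lower (-0.95, limma adjusted p = 7.73e-06), and the corepressor Tle2 was higher (0.81, limma adjusted p = 3.09e-05). Pygo1, Dact2 and Nkd2, at 0 control reads, are not tested once a library labelled Zfx-KO is left out. The genes called higher in this list were then 5, 3 and 5 without replicates 1, 2 and 3.

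Among 32 tested targets described in other settings, 15 were called higher and 10 lower, with a median of 0.05. Wisp2, a gene of the CCN family of secreted proteins, was at 15.4, 23.3 and 31.7 CPM in the libraries labelled Zfx-KO and had 3, 5 and 5 reads in the controls (log2 fold change 7.53, limma adjusted p = 6.14e-08). Smoc2, a matrix protein of the crypt stem cell signature, had a ratio of 448 (95% exact interval 124 to 3706), with 235, 283 and 469 reads in libraries labelled Zfx-KO and 1, 1 and 0 in the controls. The homeobox gene Msx1 fell as steeply as Lef1, to 2.60, 2.28 and 2.92 CPM in the libraries labelled Zfx-KO, against 14, 12.2 and 14.6 CPM in the controls (log2 fold change -2.38, limma adjusted p = 5.79e-07). Nrcam, a cell adhesion gene, was higher by 1.79 (limma adjusted p = 2.41e-06). The growth targets Myc and Ccnd1, chosen after their values were seen, had log2 fold changes of 0.06, not called, and -0.55 (limma adjusted p = 0.563 and 0.000478).

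Of 26 tested genes of planar polarity and the calcium arm, 5 were called higher and 6 lower, with a median of 0.04. Among the 5, Prickle2, Prickle3 and Daam2 passed the filter only with the libraries labelled Zfx-KO. The polarity gene Prickle2 had 49, 53 and 110 reads in libraries labelled Zfx-KO and 1, 0 and 0 in the controls, a ratio of 193 (95% exact interval 34.2 to 7639). Nfatc4, a calcium-regulated transcription factor, was higher by 2.04 on the log2 scale (limma adjusted p = 8.99e-06), while its relative Nfatc1 and the stress kinase Mapk9 were lower, with log2 fold changes of -0.72 and -0.98 (limma adjusted p = 2.81e-05 and 2.66e-06).

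**Figure D5:**
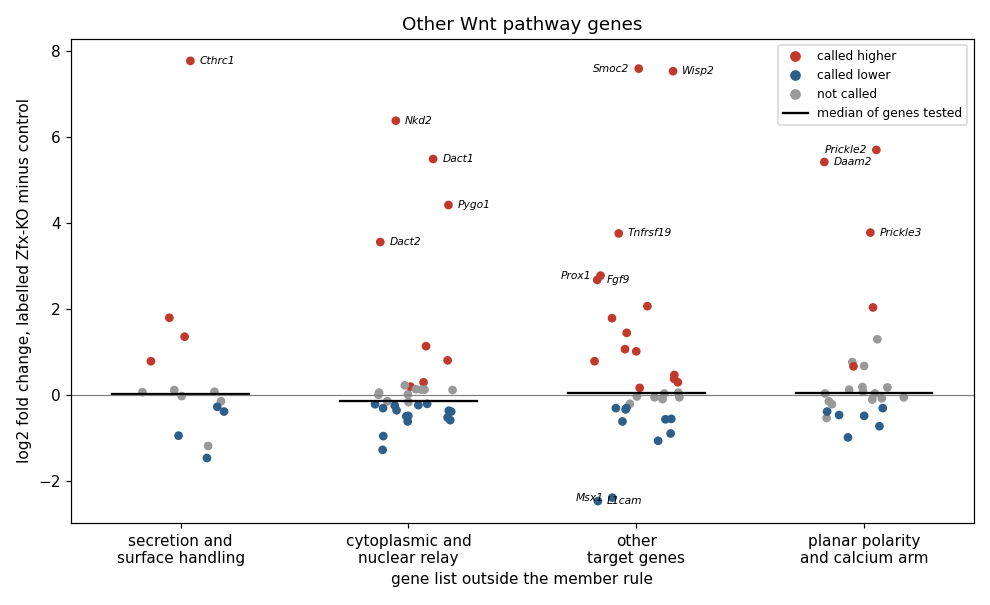
Log2 fold change (y axis, libraries labelled Zfx-KO minus controls) of each tested gene of 4 pathway lists (x axis; points spread sideways for legibility), with a line at the median of each list. The medians lie between -0.14 and 0.05, while single genes such as Cthrc1, Smoc2, Wisp2 and Nkd2 reach fitted values above 6 and Msx1 falls below -2; fitted values of genes without control reads are no bounds.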

How the data were processed

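RNA from sorted tumor cells was sequenced from a single end, per the labels' protocols, and the submitters' processing notes name mm10 and GRCh38 without a role. How reads were aligned and counted is not given in the sources used here, and strand is not stated. The authors deposited 1 table of log2 values with 0 columns of other samples. The values behaved as log2 CPM with a prior of 1 read on average (floor -5.48715), and all low values, those under 2000 reads, gave whole reads within 0.05 reads, from which reads and CPM were recovered. Labels gave the 2 groups of 3 libraries; replicates were numbered in record order, which is no basis for pairing. Coordinates are those of the table, of which 85.4% were identical in GENCODE M21 (GRCm38); chromosomes, strands and overlapping genes came from that annotation, and exon lengths from the table.

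A gene was tested when 3 or more libraries lay above the floor and its mean was at least 1 log2 unit above it. Groups were compared with limma 3.58.1 in R 4.3.3 (two-sided empirical Bayes test with an intensity trend, Benjamini-Hochberg adjustment over all 20094 genes, threshold 0.05). Log2 fold changes include the prior, so those of scarce genes differ from the ratios of read shares. Genes with 1 to 3 reads in a group have ratios of read shares with exact 95% intervals, and those with 0 control reads a bound against 3 reads over the group; 3 reads correspond to 0.0461 to 0.0794 CPM, and PCR copies are not independent molecules. Zfx was also given an exact permutation test (p = 0.1, the smallest that 3 against 3 allow). The procedure was tested on simulated data. Reads shared with close copies may be missing from the table, and antisense reads may be included.

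The Wnt genes, lists and tests were chosen with earlier results of these data known. All 6 values are given for called genes with a change of at least 2-fold and a mean in the higher group of at least 3 log2 units above the floor, for 9 feedback targets, for Ctnnb1 and Apc and for the most abundant ligand, Frizzled and antagonist; each pathway list gives its 4 smallest p. Alternatives were other filters, equal medians, quantile normalization, other variance models, array weights, other priors, limma voom on recovered reads, protein-coding genes only and leaving out each library. Tables and plots were made with matplotlib 3.10.9, scipy 1.17.1, numpy 2.4.6 and pandas 2.3.3 under Python 3.11.15.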

Additional observations from a re-analysis of the deposited data

How the results depend on the processing

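Of the 42 Wnt genes called, 33 kept their call in each of the 17 alternatives in which they were tested. The call of 9 was not kept (Fzd5, Fzd9, Lgr6, Lrp6, Rnf43, Rspo1, Wnt4, Wnt6 and Wnt8a), and no called gene changed sign. The 33 include Lgr5, Wnt11, Wnt16, Fzd6, Fzd3 and Wnt8b, which had 0 control reads and had to differ, so their kept calls carry no weight. Of all Wnt genes tested, called or not, 37 were tested in every alternative. The Wnt genes called higher numbered 22, and 13 with a mean at least 3 log2 units above the floor, where 38 were tested. Leaving out each library gave 11 to 21 called higher and 16 to 20 called lower; without replicate 1, 2 or 3 labelled Zfx-KO those called higher were 12, 11 and 14 of 46 tested, as the 7 genes at 0 control reads are then not tested. Of the genes still tested, Rspo1 lost its call in all 3 of these, and Fzd5, Lgr6 and Wnt8a without replicate 1 or 2 labelled Zfx-KO, while Wnt10b was called without replicate 1. Over the whole table, equal medians gave 3224 genes called higher and 6357 called lower, against 5003 and 3924. Zfx stayed called higher throughout, with log2 fold changes of 0.42 to 0.74. No paired analysis was possible because the labels and columns carry no replicate numbers. Depth limits the scarce genes: 17 of the 22 called higher had under 25 control reads in sum.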

Other observations

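Among the 22 Wnt genes called higher, the lowest of the libraries labelled Zfx-KO was replicate 1 in 13, replicate 2 in 4 and replicate 3 in 5. Wnt10b and Wnt1, which are not called, lie 11706 bases apart on chromosome 15, and Wnt9b and Wnt3, which were too scarce to test, 24328 bases apart on chromosome 11.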
